A study of Mus musculus with 9 samples.

Results

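The feedback inhibitors of MAP kinase signalling examined here are 9 genes: the dual-specificity phosphatases Dusp1, Dusp4, Dusp5, Dusp6 and Dusp10, the Sprouty genes Spry1, Spry2 and Spry4, and the Sprouty-related gene Spred1. They were chosen by name, as all probe sets that the platform annotation gives to them, a rule that uses no measured value, although the set was proposed with earlier results of these data known. They make up 9 of 18194 annotated genes and 21 of 45101 probe sets, and none of the 21 is shared with another gene. Expression was read in mouse cumulus cells, which are granulosa cells enclosing the oocyte in large antral follicles, on 9 Affymetrix arrays. The DM group (3 arrays) came from Bmp15-/-Gdf9+/- females, which lack the growth factor BMP15 and keep 1 intact copy of the gene for the related factor GDF9. The Bmp15-/- group (3 arrays) lacked BMP15 alone, so the loss of BMP15 is common to both mutants, and the wildtype group (3 arrays) carried neither mutation. Females of every group were 4 to 5 months old on a B6/129 background and had received 5 IU of equine chorionic gonadotropin (eCG), a hormone that stimulates follicle growth, 48 hours earlier. Each array holds cumulus cells of 75 to 100 complexes pooled from 3 to 4 mice. They were isolated in medium with 5 µM milrinone, a phosphodiesterase inhibitor that keeps oocytes from maturing, and 10 ng of their RNA was amplified.

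Growth factors outside the cell switch on receptor tyrosine kinases, which act through RAS on a chain of kinases ending in ERK. Stress and other signals reach the related kinases JNK and p38. Many genes that ERK switches on encode proteins that shut the chain down again. DUSP phosphatases remove the activating phosphates from ERK, JNK or p38, whereas Sprouty and SPRED proteins act upstream and restrain RAS and RAF, so the transcripts of several of them are widely used as readouts of recent ERK activity. In cumulus cells the chain is known for its part in the expansion of the cumulus after the ovulatory signal, and BMP15 and GDF9 are the oocyte factors that act on these cells through SMAD proteins.

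Values are log2 expression. Where a gene had several probe sets, the brightest on average stood for it. Testing required a value above the array's own 40th percentile, which was between 4.97 and 5.05, on at least 3 arrays. Of the 9 feedback genes 7 were tested and 2, Dusp4 and Spry1, were not. Of the 21 probe sets 16 passed the same filter and 5 did not. Changes are differences of means with the standard error (SE) of the limma fit, and a gene was called at a Benjamini-Hochberg adjusted p under 0.05 over 13447 tested genes.

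Some facts of the arrays bear on every result. Of the 3 Bmp15 probe sets 2 read 3.45 to 3.67 and 5.05 to 5.10 on the 6 mutant arrays. The same probe sets read 3.97, 9.34 and 7.97, and 5.10, 9.58 and 8.41, on wildtype arrays 1 to 3, while the other Bmp15 probe set read 3.91 to 4.22 on all arrays. Wildtype array 1 was therefore near the mutant arrays in this oocyte transcript. Gdf9 read 4.67, 5.30 and 5.63 in DM, 5.70, 6.59 and 4.99 in Bmp15-/- and 5.03, 8.12 and 6.56 in wildtype. The 9 named cumulus and granulosa markers all passed the filter, with summed levels of 14.55 to 14.91 in DM, 14.94 to 14.98 in Bmp15-/- and 14.96 to 15.02 in wildtype. Of the 9, 3 were called higher and 3 lower in DM against wildtype, beside 9.95% and 18.2% of all genes. In Bmp15-/- 0 were called, beside 9.07%. Mean Inhbb was 12.89 in DM, 13.51 in Bmp15-/- and 13.64 in wildtype, while mean Slc38a3 was 8.76, 7.64 and 7.52. The 15 named oocyte markers include Bmp15 and Gdf9, the targeted genes, which therefore enter their sum. Summed levels of these markers were 9.24 to 9.83 in DM, 9.44 to 11 in Bmp15-/- and 9.69 to 11.58 in wildtype. For 9 theca and stroma markers they were 9.96 to 10.33 in DM, 9.56 to 9.68 in Bmp15-/- and 9.21 to 9.49 in wildtype. These differences came largely from Pdgfra, which was higher in both mutants, and Acta2. Mean Acta2 was 7.68 in DM, 6.12 in Bmp15-/- and 5.59 in wildtype. Mean Pdgfrb went the other way, with 7.18, 7.12 and 7.55 in the same order. Col1a1 and Tagln had smaller differences, and Col1a2, Col3a1, Dcn and Cyp17a1 were near or below the 40th percentile. For 6 surface epithelium markers summed levels were 9.99 to 10.02 in DM, 9.81 to 10.15 in Bmp15-/- and 9.44 to 9.56 in wildtype. In the same order mean Krt8 was 9.08, 9.15 and 8.54, mean Krt18 was 7.87, 7.46 and 6.70 and mean Upk3b was 5.87, 5.87 and 5.59. Epcam (6.66, 6.90 and 6.78), Krt7 (6.05, 6.08 and 6.02) and Krt19 (4.38, 4.36 and 4.44) differed little. For 4 mural granulosa markers summed levels were 8.73 to 9.42 in DM, 8.86 to 9.03 in Bmp15-/- and 9.83 to 9.92 in wildtype. For 3 erythroid markers they were 6.46 to 6.74 in DM, 6.55 to 7.32 in Bmp15-/- and 7.76 to 8.42 in wildtype. Both of these sums were lower on every mutant array than on every wildtype array, but each difference came largely from 1 marker. Mean Kitl was 8.29 in DM, 8.07 in Bmp15-/- and 9.60 in wildtype. The other mural granulosa markers, Cd34, Cyp11a1 and Star, had higher means in both mutants than in wildtype. Mean Alas2 was 5.06, 5.66 and 7.64 in the same order. The other erythroid markers, Hba-a1 (4.10, 4.15 and 3.90) and Slc4a1 (5.47, 5.63 and 5.55), differed little. For 6 immune markers summed levels were 7.92 to 8.13 in DM, 7.96 to 8.14 in Bmp15-/- and 7.81 to 7.95 in wildtype. Of 5 endothelial markers 4 lay below the 40th percentile on every array. The difference between the 3' and 5' Gapdh control probe sets, which grows as RNA is shortened, was 0.79 to 0.95 in DM, 0.66 to 0.73 in Bmp15-/- and 0.52 to 0.59 in wildtype. For the beta-actin controls it was 1.85 to 2.12 in DM, 1.85 to 1.92 in Bmp15-/- and 1.87 to 1.90 in wildtype, so there the genotypes overlapped. The part of these differences in the results below was not tested. In such bulk samples fewer cells of a type and less RNA per cell cannot be told apart.

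Of the 7 feedback genes tested in DM against wildtype, Dusp5, Dusp6 and Spry2 rose and 4 were not called. Over all tested genes 28.1% were called in that comparison, 9.95% as higher and 18.2% as lower. The median change of the 7 was 0.48, beside -0.062 over all genes. Unadjusted p-values under 0.05 were found for 4 of the 7, beside 40.1% of all genes. The DM arrays lay wholly above the wildtype arrays for 4, beside 15.9% of all genes, and wholly below for 0, beside 27.4%. In Bmp15-/- against wildtype, Dusp6 and Spry2 rose and 5 were not called, beside 9.07% of all genes called, 3.29% as higher and 5.78% as lower. The median change was 0.63, beside -0.036 over all genes. Unadjusted p-values under 0.05 were found for 4 of the 7, beside 26.4% of all genes. The Bmp15-/- arrays lay wholly above the wildtype arrays for 4, beside 13.4% of all genes, and wholly below for 0, beside 23.4%. Quantile normalization between arrays moved the split of all calls to 48.4% higher and 51.6% lower in DM and 53.0% higher and 47.0% lower in Bmp15-/-, against 35.4% and 64.6%, and 36.3% and 63.7%, as deposited. Both comparisons use the same 3 wildtype arrays. In DM against Bmp15-/-, 0 of the 7 were called by limma and 1 had an unadjusted p under 0.05, beside 3.25% and 19.9% of all genes. Of all genes 1.64% were called higher and 1.61% lower. The DM arrays lay wholly below the Bmp15-/- arrays for 2 of the 7, beside 12.5% of all genes, and wholly above for 0, beside 8.95%.

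**Figure D1:**
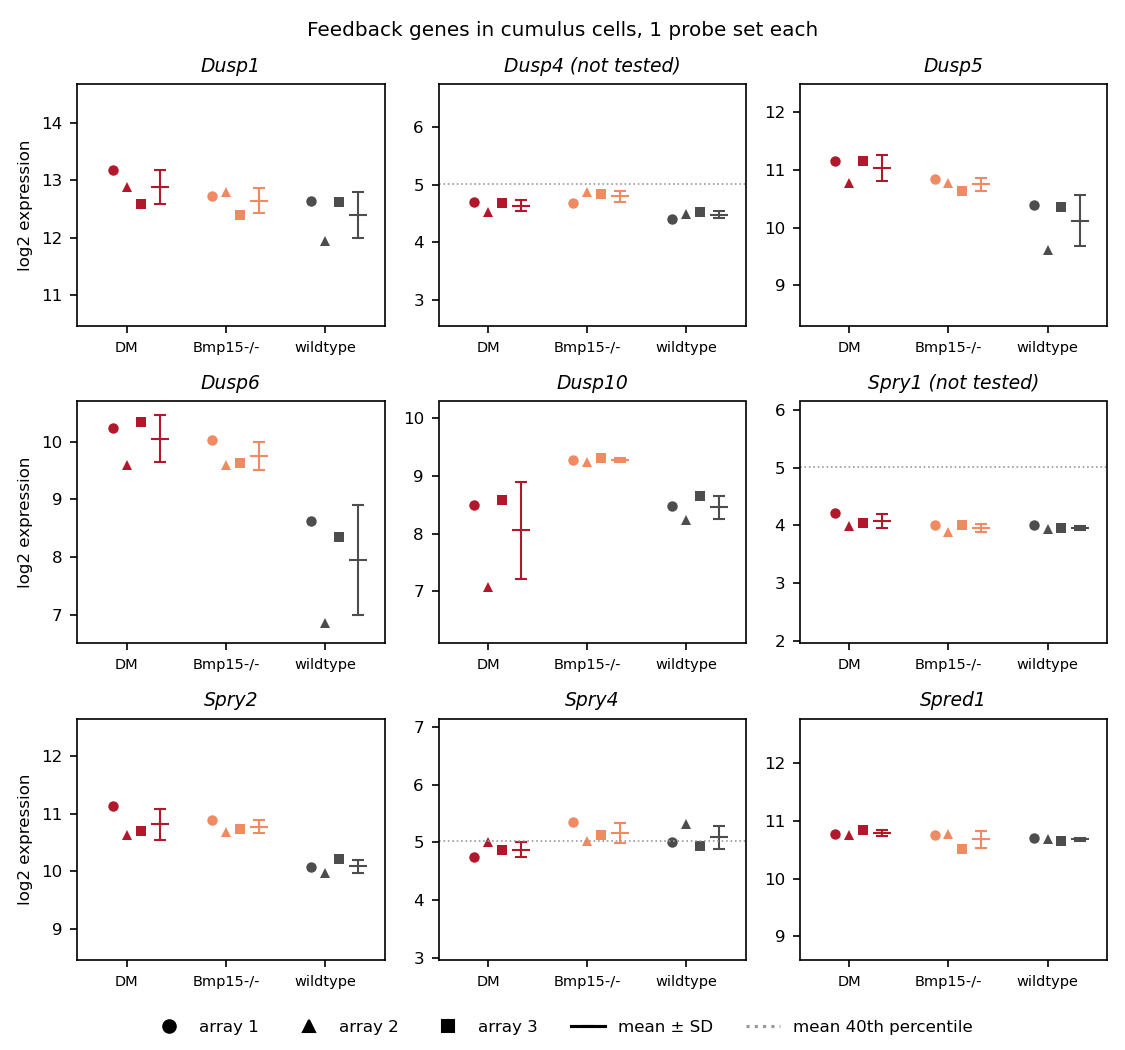
Log2 expression of the 9 feedback genes, 1 probe set each, on the arrays of DM, Bmp15-/- and wildtype cumulus cells (circle, triangle and square for arrays 1 to 3, with mean and SD). Each panel spans the same number of log2 units around its own centre, and the dotted line is the mean 40th percentile where it falls inside the panel. All 6 mutant arrays lie above all 3 wildtype arrays for Dusp5, Dusp6 and Spry2.

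Dusp6 (also known as MKP-3) encodes a cytoplasmic phosphatase that is selective for ERK. It read 10.24, 9.59 and 10.34 on DM arrays 1 to 3, 10.04, 9.60 and 9.63 on Bmp15-/- arrays, and 8.63, 6.86 and 8.35 on wildtype arrays. Every mutant array lay above every wildtype array, and wildtype array 2 was the lowest of all. Dusp6 rose by 2.11 ± 0.40 (SE) in DM against wildtype, a 4.32-fold difference with a 95% confidence interval of 1.20 to 3.02 log2 units (limma adjusted p = 0.00482). It rose by 1.81 ± 0.40 in Bmp15-/- against wildtype, 3.51-fold with an interval of 0.90 to 2.72 (limma adjusted p = 0.0262). Means were 10.06 ± 0.40 in DM, 9.76 ± 0.25 in Bmp15-/- and 7.95 ± 0.95 in wildtype (SD, n = 3 each), so the spread was widest in wildtype. Without wildtype array 2 the changes were 1.57 in DM and 1.27 in Bmp15-/-, both still called by limma (adjusted p = 0.00373 and 0.0303). That array also had the highest median of oocyte markers, 6.51, beside 5.00 to 5.34 in DM, 5.10 to 5.89 in Bmp15-/- and 5.10 and 5.93 on the other wildtype arrays. The targeted genes Bmp15 and Gdf9 are among these markers. The Bmp15-/- call was lost without wildtype array 3 (adjusted p = 0.0504) and without Bmp15-/- array 1, 2 or 3 (0.0712, 0.0604 and 0.0751). Over all 20 alternatives its limma adjusted p ranged between 0.0105 and 0.0751. For DM the range was 0.00186 to 0.0199.

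Dusp5 encodes a nuclear phosphatase, also selective for ERK, whose transcript is induced by growth factors. It read 11.16, 10.77 and 11.16 on DM arrays, 10.84, 10.78 and 10.63 on Bmp15-/- arrays and 10.39, 9.61 and 10.36 on wildtype arrays. Again no mutant array overlapped a wildtype array, and wildtype array 2 was lowest. Dusp5 rose by 0.91 ± 0.20 in DM, 1.88-fold with an interval of 0.46 to 1.36 (limma adjusted p = 0.00939). In Bmp15-/- the change was 0.63 ± 0.20, with an interval of 0.18 to 1.08, and it was not called by limma (adjusted p = 0.0833). The DM call was kept under all 20 alternatives, with a change of 0.656 without wildtype array 2. Without that array the change in Bmp15-/- was 0.375 (limma adjusted p = 0.175).

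Dusp1 (MKP-1) encodes a nuclear phosphatase of ERK, JNK and p38 and is a classic immediate early gene. Its values were 13.18, 12.88 and 12.58 in DM, 12.73, 12.80 and 12.40 in Bmp15-/- and 12.63, 11.94 and 12.62 in wildtype. The groups overlapped. The change of 0.48 ± 0.21 in DM had an unadjusted p of 0.0491 and was not called by limma (adjusted p = 0.123). The change of 0.25 ± 0.21 in Bmp15-/- was not called either (limma adjusted p = 0.499), with an interval of -0.23 to 0.73. Without wildtype array 2, the lowest, the changes were 0.254 in DM and 0.0183 in Bmp15-/- (limma adjusted p = 0.37 and 0.971).

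Dusp10 (MKP-5) encodes a phosphatase of JNK and p38. Its brighter probe set read 8.50, 7.08 and 8.59 in DM, 9.28, 9.25 and 9.31 in Bmp15-/- and 8.48, 8.24 and 8.65 in wildtype. All 3 Bmp15-/- arrays lay above every other array, and DM array 2 stood apart from the other DM arrays. The change in Bmp15-/- was 0.82 ± 0.33, not called by limma (adjusted p = 0.155), although the groups did not overlap. In DM it was -0.40 ± 0.33 (limma adjusted p = 0.403), which turned to 0.0854 without DM array 2. Without that array Dusp10 passed limma's threshold in Bmp15-/- against wildtype at the same change (adjusted p = 0.00406). With only the 2 groups compared in the fit the adjusted p was 0.00629, and over the 20 alternatives it ranged up to 0.47. The other Dusp10 probe set read 6.96, 6.55 and 6.85 in DM, 7.16, 6.91 and 7.03 in Bmp15-/- and 6.76, 6.67 and 6.86 in wildtype. Its changes, 0.03 in DM and 0.27 in Bmp15-/-, were not called by limma among all 27991 probe sets tested (adjusted p = 0.903 and 0.218). As the mean of its probe sets Dusp10 changed by 0.546 in Bmp15-/- and by -0.188 in DM against wildtype, and by -0.734 between the mutants.

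Dusp4 (MKP-2), a nuclear phosphatase of MAP kinases, was below the 40th percentile on all 9 arrays. It read 4.70, 4.52 and 4.69 in DM, 4.69, 4.87 and 4.84 in Bmp15-/- and 4.41, 4.50 and 4.53 in wildtype. The lowest DM array lay below the highest wildtype array, while all 3 Bmp15-/- arrays lay above all 3 wildtype arrays. At this signal Dusp4 was outside the test. With no filter on dim genes all 9 feedback genes were tested, and the counts called by limma were 3 in DM, 2 in Bmp15-/- and 0 between the mutants, as with it.

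**Figure D2:**
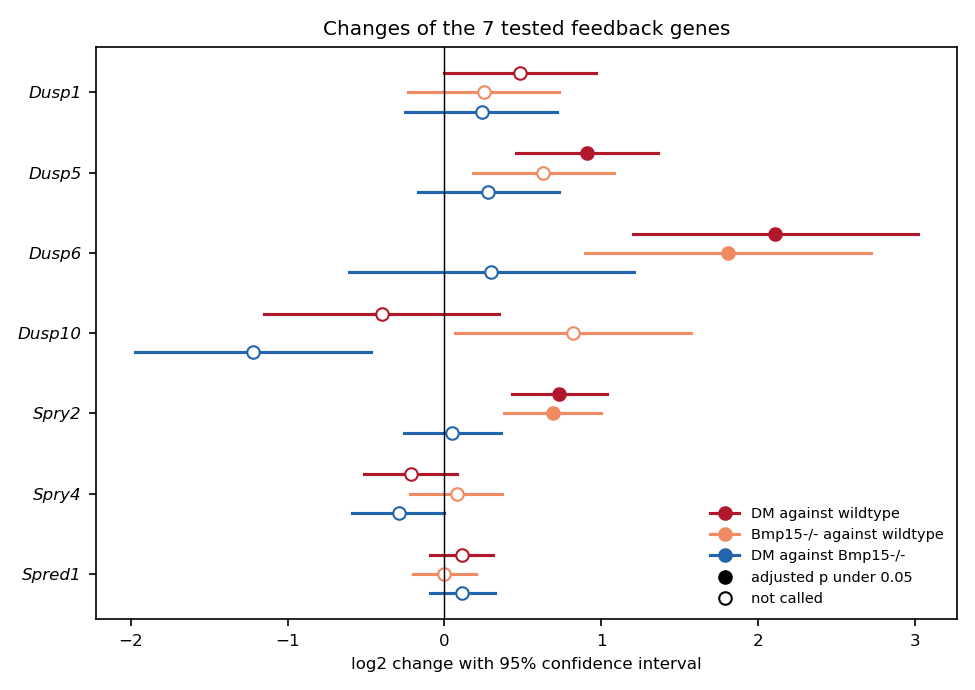
Log2 changes of the 7 tested feedback genes with 95% confidence intervals, for DM against wildtype, Bmp15-/- against wildtype and DM against Bmp15-/-. Filled symbols mark an adjusted p under 0.05, reached by Dusp5, Dusp6 and Spry2 in DM and by Dusp6 and Spry2 in Bmp15-/-.

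Spry2 encodes a Sprouty protein, which is recruited on growth factor stimulation and restrains RAS-ERK signalling. Its brighter probe set read 11.13, 10.63 and 10.70 in DM, 10.90, 10.69 and 10.73 in Bmp15-/- and 10.07, 9.98 and 10.21 in wildtype. Every mutant array was above every wildtype array, and here the wildtype arrays lay close together. Spry2 rose by 0.73 ± 0.14 in DM, 1.66-fold with an interval of 0.43 to 1.04 (limma adjusted p = 0.0043). It rose by 0.69 ± 0.14 in Bmp15-/-, 1.61-fold with an interval of 0.38 to 1.00 (limma adjusted p = 0.0179). The Bmp15-/- call was lost without wildtype array 1 or 2 (adjusted p = 0.0584 and 0.0718) and without Bmp15-/- array 1 or 3 (0.0521 and 0.0559). Over the 20 alternatives that adjusted p ranged between 0.00642 and 0.131. The DM call held in all 20. The dimmer Spry2 probe set read 5.71, 5.34 and 5.37 in DM, 5.75, 5.86 and 5.59 in Bmp15-/- and 5.52, 5.05 and 5.23 in wildtype. It was not called by limma in DM (0.21 ± 0.15, adjusted p = 0.346) or in Bmp15-/- (0.47 ± 0.15, adjusted p = 0.0959), so the Spry2 calls rest on 1 of its 2 probe sets. Spry2 as the mean of both probe sets changed by 0.471 in DM and was still called by limma (adjusted p = 0.0189).

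The other Sprouty genes were dim. Spry1 read 4.22, 3.98 and 4.04 in DM, 4.00, 3.88 and 4.00 in Bmp15-/- and 4.00, 3.93 and 3.95 in wildtype, below the 40th percentile on all arrays. Of the 4 Spry4 probe sets 1 passed, with 4.74, 5.01 and 4.87 in DM, 5.36, 5.02 and 5.13 in Bmp15-/- and 5.01, 5.32 and 4.94 in wildtype. It exceeded the percentile on only 1 DM, 2 Bmp15-/- and 1 wildtype array. Spry4 was not called by limma in DM (-0.21 ± 0.13, adjusted p = 0.256) or in Bmp15-/- (0.08 ± 0.13, adjusted p = 0.757). For both genes, signal near the background of the arrays limits what could be seen.

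Spred1 encodes a membrane protein that brings the RAS inhibitor neurofibromin to the membrane. It was measured by 8 probe sets that all passed the filter, 1 of them only just, above the 40th percentile on 1 array of each genotype. The brightest read 10.77, 10.76 and 10.85 in DM, 10.75, 10.78 and 10.51 in Bmp15-/- and 10.71, 10.69 and 10.65 in wildtype. The DM arrays lay just above the wildtype arrays, and the Bmp15-/- arrays overlapped them. The change was 0.11 ± 0.09 in DM, with an interval of -0.09 to 0.31 (limma adjusted p = 0.383). In Bmp15-/- the interval was -0.20 to 0.20 around a change rounding to 0.00 (limma adjusted p = 0.998). None of the 8 probe sets was called by limma in either mutant among all probe sets tested, of which 24.2% were called in DM and 6.33% in Bmp15-/-. Their changes ranged between -0.25 and 0.45 in DM and between -0.19 and 0.21 in Bmp15-/-, where the dim probe set gave the -0.25. Of the 8, 1 had an unadjusted p under 0.05 in DM (0.42 ± 0.16, adjusted p = 0.0867).

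**Figure D3:**
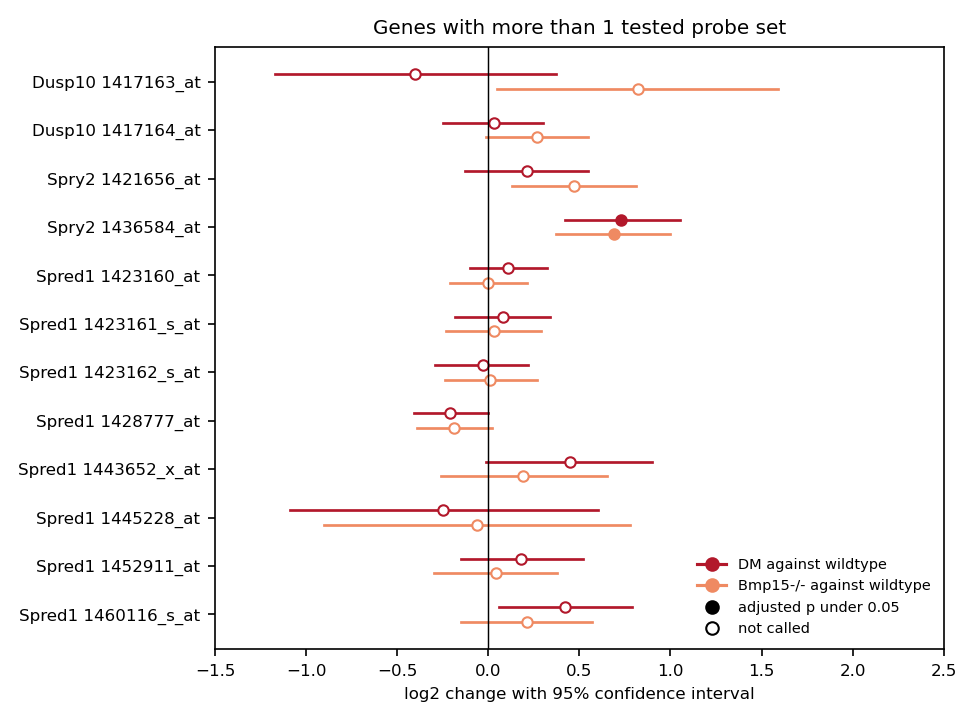
Log2 change with 95% confidence interval for each tested probe set of Dusp10, Spry2 and Spred1, in DM and in Bmp15-/- against wildtype. Filled symbols mark an adjusted p under 0.05 over all 27991 probe sets tested. Only the brighter Spry2 probe set is filled, and the 8 Spred1 probe sets lie on both sides of 0.

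In DM against Bmp15-/- the 3 genes called in DM had small changes with wide intervals. For Dusp6 the change was 0.30 with an interval of -0.61 to 1.21, for Dusp5 0.28 with an interval of -0.17 to 0.73, and for Spry2 0.05 with an interval of -0.26 to 0.36. An added effect of losing 1 Gdf9 copy was not detected for them, and the intervals give the sizes that these arrays leave possible. Dusp10 had the largest difference of the 7, -1.22 ± 0.33 with an interval of -1.97 to -0.47 (limma adjusted p = 0.0805), and the groups did not overlap. Without DM array 2 it was -0.735 and passed limma's threshold (adjusted p = 0.0128), while its range over the 20 alternatives was 0.0128 to 0.256. Dusp1, Spry4 and Spred1 had changes of 0.24, -0.29 and 0.11, none called by limma (adjusted p = 0.591, 0.259 and 0.531). None of the 16 probe sets was called between the mutants either, beside 1.93% of all probe sets tested.

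The promoters of the genes that rose, and that of Dusp1 for contrast, are shown because transcription of this family is known to respond to growth factor signals and cyclic AMP. Of the 9 genes 7 had a window in the RefSeq promoter set (assembly GRCm38.p6), which runs from 250 bases before to 50 after the transcription start. Sequences are given 5' to 3' on the strand of the gene, at chr10:99262981-99263280 (plus strand) for Dusp6, chr19:53528895-53529194 (plus) for Dusp5, chr14:105896770-105897069 (minus) for Spry2 and chr17:26508423-26508722 (minus) for Dusp1. Capitals mark CArG boxes, the core of serum response elements, in Dusp5 and a full cyclic AMP response element in Dusp1.
Dusp6: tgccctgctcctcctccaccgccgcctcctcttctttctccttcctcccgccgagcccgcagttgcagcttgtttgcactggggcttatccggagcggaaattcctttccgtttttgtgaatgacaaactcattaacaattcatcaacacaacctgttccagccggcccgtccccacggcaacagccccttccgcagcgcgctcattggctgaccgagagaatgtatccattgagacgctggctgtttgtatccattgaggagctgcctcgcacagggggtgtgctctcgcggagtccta
Dusp5: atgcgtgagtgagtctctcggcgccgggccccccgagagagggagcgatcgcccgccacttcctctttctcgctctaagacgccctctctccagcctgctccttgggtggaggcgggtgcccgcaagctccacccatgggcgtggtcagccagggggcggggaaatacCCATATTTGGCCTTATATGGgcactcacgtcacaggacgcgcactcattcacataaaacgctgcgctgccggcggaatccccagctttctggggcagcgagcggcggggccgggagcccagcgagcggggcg
Spry2: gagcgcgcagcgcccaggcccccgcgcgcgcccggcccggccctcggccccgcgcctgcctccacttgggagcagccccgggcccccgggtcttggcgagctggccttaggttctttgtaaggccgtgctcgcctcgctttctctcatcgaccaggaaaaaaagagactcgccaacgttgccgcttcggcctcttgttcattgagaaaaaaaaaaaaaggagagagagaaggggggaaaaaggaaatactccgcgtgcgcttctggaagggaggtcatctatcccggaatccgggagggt
Dusp1: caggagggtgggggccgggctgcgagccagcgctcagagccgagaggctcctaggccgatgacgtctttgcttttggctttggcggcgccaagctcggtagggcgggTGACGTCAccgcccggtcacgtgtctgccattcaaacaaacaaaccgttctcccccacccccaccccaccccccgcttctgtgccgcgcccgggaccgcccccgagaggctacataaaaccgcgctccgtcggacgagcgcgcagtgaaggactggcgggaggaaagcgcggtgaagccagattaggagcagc
Both strands were searched for the cyclic AMP response element TGACGTCA and its shorter core TGACG, the AP-1 site TGANTCA and the EGR site GCGNGGGCG. The CArG box, by name, and the extended ETS site CCGGAAG were searched too. The shorter ETS core GGAA was not searched for, so its presence in these windows is not described. The Dusp5 window held 2 adjacent CArG boxes, CCATATTTGG at 82 to 73 and CCTTATATGG at 72 to 63 bases before the start, and TGACG once on the minus strand. A CArG box was present in 1.63% of all 32851 windows. The Dusp1 window held TGACGTCA at 143 to 136 bases before the start, a palindrome that also contains TGACG on each strand, and 1 more TGACG at 191 to 187. TGACGTCA was present in 1.79% of all windows and TGACG in 20.8%. No match to these letters lay in the Dusp6 and Spry2 windows shown here, nor in those of Dusp10, Spry1 and Spred1. TGANTCA was present in 7.81% of all windows, CCGGAAG in 8.86% and GCGNGGGCG in 5.55%. A match is a run of letters, and binding was not measured.

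Among 5 further MAP kinase phosphatases, all tested, 3 rose and 1 fell in DM, and 2 rose and 1 fell in Bmp15-/-. Their median change was 0.41 in DM and 0.30 in Bmp15-/-. Over all genes 9.95% were called higher and 18.2% lower in DM, and 3.29% and 5.78% in Bmp15-/-. Dusp9 (MKP-4), a cytoplasmic phosphatase of ERK related to Dusp6, went the other way from it. It read 6.47, 6.37 and 6.66 in DM, 6.87, 6.84 and 6.76 in Bmp15-/- and 8.46, 8.24 and 7.97 in wildtype. Every mutant array was well below every wildtype array. Dusp9 changed by -1.72 ± 0.13 in DM (limma adjusted p = 5.12e-05) and by -1.40 ± 0.13 in Bmp15-/- (limma adjusted p = 0.000537). All 3 of its probe sets were called lower in both mutants, with changes between -3.04 and -0.86 in DM and between -2.50 and -0.76 in Bmp15-/-. Dusp9 was called under all 20 alternatives in both mutants. Without any 1 of the 3 wildtype arrays another of its probe sets was the brightest, the one with the smallest changes, and the change was then -0.788 to -0.993 in DM and -0.692 to -0.898 in Bmp15-/-.

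Dusp8 and Dusp16, which encode phosphatases that act mainly on JNK and p38, rose in both mutants. Dusp8 read 7.20, 7.01 and 7.43 in DM, 7.96, 7.57 and 7.55 in Bmp15-/- and 6.48, 6.42 and 6.80 in wildtype. Its change was 0.65 ± 0.16 in DM (limma adjusted p = 0.0136) and 1.13 ± 0.16 in Bmp15-/- (limma adjusted p = 0.00419). The other 2 Dusp8 probe sets were not called, and 1 of them changed by -0.23 in DM and -0.01 in Bmp15-/-. The DM call of Dusp8 was lost without wildtype array 1 or 2 (adjusted p = 0.0512 and 0.0536), in a range of 0.00817 to 0.224 over its alternatives. Dusp8 as the mean of its probe sets changed by 0.241 in DM, not called by limma (adjusted p = 0.224), and by 0.59 in Bmp15-/-. Dusp16 changed by 0.41 ± 0.12 in DM and 0.58 ± 0.12 in Bmp15-/- (limma adjusted p = 0.0287 and 0.0181), with values of 8.29, 8.23 and 8.22 in DM, 8.53, 8.27 and 8.46 in Bmp15-/- and 7.67, 7.77 and 8.07 in wildtype. Dusp2, a nuclear phosphatase of immune cells and other tissues, rose in DM by 0.42 ± 0.11 (limma adjusted p = 0.0241). Dusp7, another cytoplasmic ERK phosphatase, was not called (limma adjusted p = 0.151 in DM and 0.192 in Bmp15-/-). Calls of Dusp16 were lost in DM without wildtype array 1 or 2 or DM array 1 or 3 and as the mean of its probe sets, and in Bmp15-/- without wildtype array 1 or 2 or Bmp15-/- array 1 or 3. Dusp2 lost its call without wildtype array 1 or 3 or DM array 1 or 3. The count of called phosphatases in DM was 1 without wildtype array 1, and 2 without wildtype array 2 or without DM array 1 or 3.

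**Figure D4:**
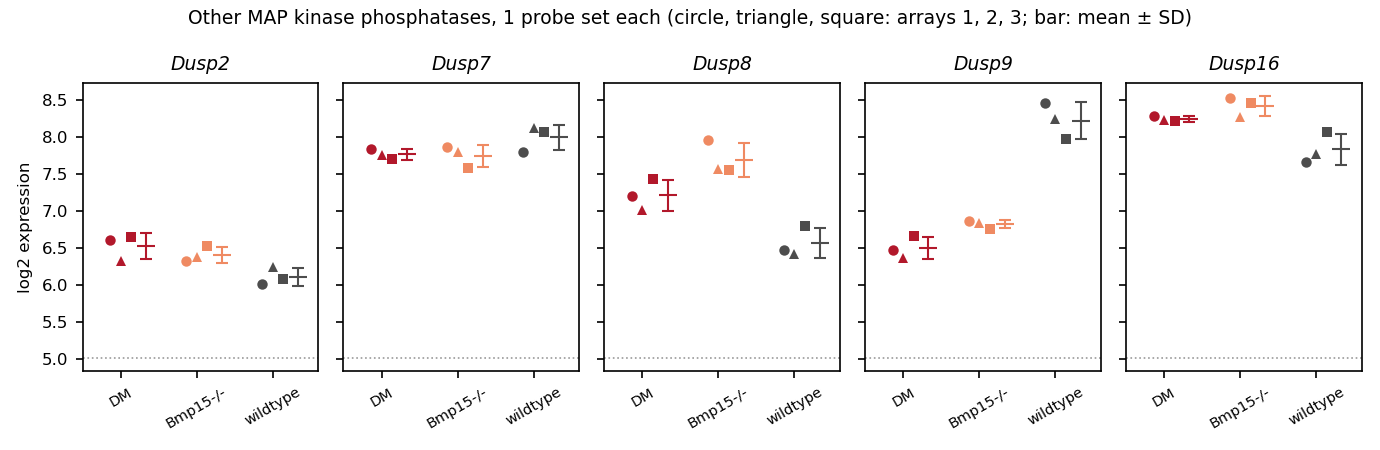
Log2 expression of 5 further MAP kinase phosphatase genes on the arrays of DM, Bmp15-/- and wildtype cumulus cells, with mean and SD. Dusp9 lies lower on all 6 mutant arrays than on the 3 wildtype arrays, and Dusp8 and Dusp16 lie higher.

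The next lists also stand beside 28.1% of all genes called in DM and 9.07% in Bmp15-/-. Of 16 smaller and atypical dual-specificity phosphatase genes 11 were tested, with a median change of 0.00 in DM and -0.02 in Bmp15-/-. Dusp3, a small phosphatase able to act on ERK and JNK, rose in DM (0.69 ± 0.18, limma adjusted p = 0.0184), and none was called in Bmp15-/- by limma, where 2 had an unadjusted p under 0.05, beside 26.4% of all genes. The Dusp3 call was lost without wildtype array 2 or 3 (adjusted p = 0.0661 and 0.0516) and without DM array 1 or 3 (0.0519 and 0.0502), in a range of 0.00391 to 0.0951 over its alternatives, and as the mean of its probe sets the change was 0.257. The count of the list in DM was then 0 without wildtype array 2, wildtype array 3 or DM array 3, and the count in Bmp15-/- was 1 without Bmp15-/- array 1. Of 3 further Sprouty and SPRED genes only Spred2 was tested. It changed by 0.51 ± 0.18 in DM and 0.25 ± 0.18 in Bmp15-/-, not called by limma (adjusted p = 0.0626 and 0.425).

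Other listed inhibitors of receptors, RAS or ERK, outside these families, were called in both directions in DM. Of 15, 14 were tested, and in DM 3 rose and 3 fell, with a median change of 0.14. Over all genes 9.95% were called higher and 18.2% lower in DM. In Bmp15-/- 1 rose, with a median of 0.08, beside 9.07% of all genes called, 3.29% as higher and 5.78% as lower. Errfi1, whose product binds and inhibits EGF receptors and which is itself induced by ERK, rose by 0.76 in DM (limma adjusted p = 0.0134) and by 0.72 in Bmp15-/- (limma adjusted p = 0.0403). The Bmp15-/- count was 0 without wildtype array 1 or 2, Bmp15-/- array 2 or 3, or DM array 1, and Errfi1 itself lost that call under 9 of 20 alternatives, with a change of 0.407 as the mean of its probe sets. Il17rd (Sef), an antagonist of FGF signalling, read 5.96, 5.96 and 6.15 in DM, 4.94, 5.34 and 5.28 in Bmp15-/- and 5.19, 5.21 and 5.58 in wildtype. It rose in DM against wildtype by 0.70 ± 0.14 (limma adjusted p = 0.00589) and in DM against Bmp15-/- by 0.84 ± 0.14 (limma adjusted p = 0.016). It was the only gene of this list called between the mutants, beside 3.25% of all genes. That count was 0 without Bmp15-/- array 1 and 2 without DM array 2. Il17rd was near background, above the 40th percentile on only 2 Bmp15-/- arrays. It was tested under 18 of the 20 alternatives and called between the mutants in 16. Pea15a, whose product holds ERK in the cytoplasm, changed by -0.77 in DM (limma adjusted p = 0.00543). Lrig1, whose product promotes the loss of EGF family receptors, changed by -0.60 (limma adjusted p = 0.00863), but as the mean of its probe sets by -0.269, not called (limma adjusted p = 0.0758).

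The kinases that these inhibitors act on stand beside a background of 9.95% of all genes called higher and 18.2% called lower in DM, and 3.29% and 5.78% in Bmp15-/-. Of the 19 genes listed for the RAS to ERK chain 13 were named by the annotation and tested. In DM 0 rose and 3 fell, with a median change of -0.29, and in Bmp15-/- 0 rose and 2 fell, with a median of -0.20. Ksr1, a scaffold that holds RAF, MEK and ERK together, read 5.19, 5.83 and 5.83 in DM, 6.58, 6.08 and 6.39 in Bmp15-/- and 7.48, 7.14 and 7.32 in wildtype. It changed by -1.70 in DM (limma adjusted p = 0.000353) and -0.96 in Bmp15-/- (limma adjusted p = 0.0177). As the mean of its probe sets the changes were -0.545 and -0.346, both still called. Gab1, an adaptor between receptors and RAS, changed by -0.31 and -0.33 in DM and Bmp15-/- (limma adjusted p = 0.026 and 0.0468). Rps6ka3, an ERK-activated kinase, changed by -0.47 in DM (limma adjusted p = 0.0233). Of 20 alternatives, 5 lost the Ksr1 call in Bmp15-/-, 15 the Gab1 call in Bmp15-/-, 5 the Gab1 call in DM and 5 the Rps6ka3 call. The DM count was 1 without wildtype array 1, 5 without DM array 2 and 1 after quantile normalization. The Bmp15-/- count was 0 without wildtype array 1 or 3 or Bmp15-/- array 2 or 3, and 1 without wildtype array 2, Bmp15-/- array 1 or DM array 1.

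For the JNK and p38 chains 13 of 16 genes were tested. In DM 1 rose and 4 fell (median -0.28), and in Bmp15-/- 0 rose and 2 fell (median -0.17). Mapk8, which encodes JNK1, changed by -0.51 in DM (limma adjusted p = 0.002), and Mapk9, which encodes JNK2, by 0.28 (limma adjusted p = 0.0379). Map3k1, an upstream activator, changed by -0.58 in DM and -0.48 in Bmp15-/- (limma adjusted p = 0.0057 and 0.0355). Map2k3, which activates p38, changed by -0.40 in DM and -0.37 in Bmp15-/- (limma adjusted p = 0.00913 and 0.0317). Of 20 alternatives, 10 lost the Bmp15-/- calls of Map3k1 and of Map2k3, and 12 lost the Mapk9 call. As the mean of their probe sets Mapk8 changed by -0.0798 in DM and Mapk9 by 0.0629, neither called by limma (adjusted p = 0.551 and 0.638). Map3k1 then changed by -0.296 in DM, still called, and by -0.21 in Bmp15-/-, not called (limma adjusted p = 0.0258 and 0.146). The Bmp15-/- count was 0 without any 1 of the 3 Bmp15-/- or 3 wildtype arrays. The DM count was 3 without wildtype array 1 or 3, Bmp15-/- array 2 or 3, or DM array 1 or 3.

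Receptors that signal through ERK moved in opposite directions. Of 14, 11 were tested. In DM 3 rose and 3 fell, and in Bmp15-/- 2 rose and 3 fell, with medians of -0.21 and -0.07. Over all genes 9.95% were called higher and 18.2% lower in DM, and 3.29% and 5.78% in Bmp15-/-. Egfr, the receptor of EGF-like ligands, read 8.43, 8.74 and 8.49 in DM, 9.99, 9.95 and 9.86 in Bmp15-/- and 10.84, 10.78 and 10.76 in wildtype. The 3 genotypes did not overlap. It changed by -2.24 ± 0.10 in DM and -0.86 ± 0.10 in Bmp15-/- against wildtype (limma adjusted p = 3.64e-06 and 0.00159), and by -1.38 in DM against Bmp15-/- (limma adjusted p = 0.000763). Egfr as the mean of its probe sets changed by -0.838, -0.395 and -0.443 in the same 3 comparisons, each still called by limma (adjusted p = 0.00014, 0.0193 and 0.0239). Fgfr2, a receptor of fibroblast growth factors, fell in both mutants, with changes of -2.16 ± 0.15 and -0.91 ± 0.15 in DM and Bmp15-/- (limma adjusted p = 3.93e-05 and 0.00771) and -1.25 between the mutants (limma adjusted p = 0.00662). Pdgfra, a receptor of platelet-derived growth factors, rose by 1.57 in DM and 0.92 in Bmp15-/- (limma adjusted p = 0.000503 and 0.0197). It is also among the stroma markers summed above. Pdgfrb, another of those markers, was called lower, with changes of -0.37 in DM and -0.43 in Bmp15-/- (limma adjusted p = 0.0359 and 0.0451). Insr, the insulin receptor, rose by 1.08 in DM and 0.69 in Bmp15-/- (limma adjusted p = 0.000224 and 0.00746). Under 20 alternatives the Bmp15-/- call was lost in 4 for Pdgfra, in 2 for Insr and in 2 for Fgfr2. Fgfr2 as the mean of its probe sets changed by -0.877 in DM and -0.544 between the mutants, still called, and by -0.333 in Bmp15-/-, not called (limma adjusted p = 0.0535). Insr then changed by 0.313 in DM and 0.135 in Bmp15-/-, neither called by limma (adjusted p = 0.086 and 0.529), and Pdgfra by 0.877 and 0.529, both called. The Bmp15-/- count of receptors was 3 without wildtype array 1 or 3 or Bmp15-/- array 3, and the count between the mutants was 4 without DM array 2.

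Of 19 listed ligands of these receptors 10 were tested, and in DM 2 rose and 2 fell. Over all genes 9.95% were called higher and 18.2% lower in DM, and 9.07% were called in Bmp15-/-. Hbegf, an EGF-like ligand induced by ERK, read 9.27, 8.61 and 8.09 in DM, 7.66, 7.31 and 7.75 in Bmp15-/- and 6.83, 6.63 and 6.88 in wildtype. It rose by 1.87 ± 0.25 in DM (limma adjusted p = 0.000839). In Bmp15-/- its change was 0.79 ± 0.25 (limma adjusted p = 0.0812). Pdgfa rose by 0.97 in DM (limma adjusted p = 0.00266), and Igf1, which encodes an insulin-like growth factor, changed by -0.80 (limma adjusted p = 0.00286). Kitl, the ligand through which granulosa cells act on the oocyte, changed by -1.31 in DM and -1.54 in Bmp15-/- (limma adjusted p = 0.00848 and 0.0128) and was the only ligand called in Bmp15-/-. That count was 0 without wildtype array 2 or Bmp15-/- array 3, and 2 without DM array 1, 2 or 3.

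Genes listed as immediate early genes or ETS factors downstream of ERK were called in 1 direction. Of 24 listed, 23 were tested. In DM 11 rose and 0 fell, with a median change of 0.54, and in Bmp15-/- 5 rose and 0 fell, with a median of 0.30. Over all genes 9.95% were called higher and 18.2% lower in DM, and 3.29% and 5.78% in Bmp15-/-. Egr3, an EGR transcription factor, read 10.33, 9.02 and 10.40 in DM, 8.48, 7.96 and 8.51 in Bmp15-/- and 6.43, 4.33 and 5.09 in wildtype. It rose by 4.63 in DM (limma adjusted p = 0.000327) and 3.03 in Bmp15-/- (limma adjusted p = 0.00905). Its value on wildtype array 2 lay below the 40th percentile, and as the mean of its probe sets the changes were 2.28 and 1.43, both still called. The Bmp15-/- call of Egr3 was kept under 19 of 20 alternatives (highest limma adjusted p = 0.0641). Fosl2, a partner in AP-1, rose by 1.23 and 1.31 in DM and Bmp15-/- (limma adjusted p = 0.00137 and 0.00419). Srf, the factor that binds CArG boxes, rose by 1.38 in DM and 0.90 in Bmp15-/- (limma adjusted p = 0.00274 and 0.045), and Fosb by 1.36 in DM and 1.28 in Bmp15-/- (limma adjusted p = 0.00997 and 0.0329). The Bmp15-/- calls of Srf and Fosb were lost under 11 and 6 of 20 alternatives, and as the mean of its probe sets Srf changed by 0.758 in DM and by 0.51 in Bmp15-/-. The Bmp15-/- count was 3 without wildtype array 2, and 2 without wildtype array 3 or without Bmp15-/- array 1, 2 or 3. Between DM and Bmp15-/- 0 were called by limma, beside 5 with an unadjusted p under 0.05, which 19.9% of all genes had. The count of calls was 1 without wildtype array 2 or DM array 2 and 2 without DM array 3.

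**Figure D5:**
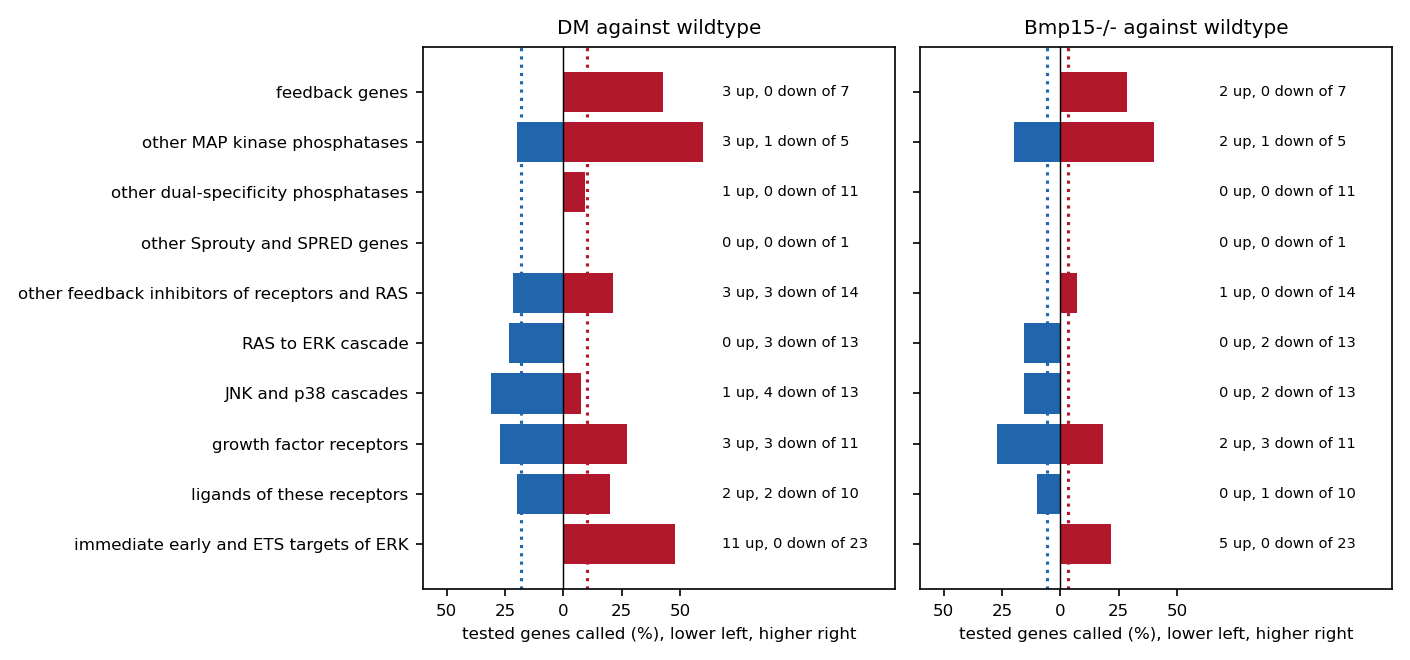
Share of the tested genes of each list called higher (right) or lower (left) in DM and in Bmp15-/- against wildtype, with the counts beside each bar. Dotted lines mark the share of all 13447 tested genes called in that direction, 9.95% higher and 18.2% lower in DM and 3.29% higher and 5.78% lower in Bmp15-/-.

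Genes whose array values ran closest to Dusp6 and to Spry2 were found by the root mean square difference of values centred on each gene's mean over the 9 arrays, as a description. Closest to Dusp6 were Egr2 (0.228), Irf2bpl (0.251) and Rnd3 (0.274). Egr2, another EGR transcription factor, read 13.17, 12.77 and 12.96 in DM, 12.52, 12.48 and 12.36 in Bmp15-/- and 11.74, 9.90 and 10.98 in wildtype, so that wildtype array 2 was again the lowest. It rose by 2.09 ± 0.36 in DM and 1.58 ± 0.36 in Bmp15-/- (limma adjusted p = 0.00306 and 0.0294), and the Bmp15-/- call was lost under 5 of 20 alternatives. Closest to Spry2 were Snhg12 (0.088), Ddit3 (0.096) and Gpc4 (0.115). Gpc4, a glypican, rose by 0.66 ± 0.12 in DM and 0.62 ± 0.12 in Bmp15-/- (limma adjusted p = 0.00365 and 0.0147). These rankings rest on the same 9 arrays as the changes above.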

How the data were processed

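Total RNA of cumulus cells was measured on 9 arrays, 3 per genotype, each a pool of several mice. The authors deposited log2 expression values per probe set, and RMA and affy are named in the submitters' processing notes. No version or setting of either is given in the labels or headers used. This method normalizes between arrays and compresses changes of dim transcripts. Scanner files were not used here. Probe sets were named from the platform annotation, updated by gene identifier through RefSeq (GRCm38.p6). Of the 45101 on the array, 34958 had 1 gene, 932 several and 9211 none listed, and 34754 were found in RefSeq. The dim filter set aside 4747 of 18194 genes. The 9 arrays entered 1 limma 3.58.1 fit (lmFit and eBayes, 2-sided tests, R 4.3.3, version 1.17.8 of data.table) with a coefficient per genotype and 6 residual degrees of freedom. The fit was tested on simulated data. Alternatives covered the filter, the choice of probe set, normalization, a floor, the variance model, the groups in the fit, a replicate block and leaving out arrays. The members, the gene lists and the tests were chosen with earlier results of these data known. All 9 members were named, with up to 4 called genes of smallest adjusted p from each other list and the 3 genes closest to Dusp6 and to Spry2. Dusp7, Spred2, Pdgfrb and single markers of cell types were named beyond that rule, after their values were seen. The number of arrays limits the precision. Per the labels' protocols 3 sets of samples were collected, and p-values measure the spread between these samples. Figures were drawn with matplotlib 3.10.9.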

Additional observations from a re-analysis of the deposited data

How the results depend on the processing

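The feedback genes were recomputed under 20 alternatives. In DM against wildtype 3 were called under all of them. In Bmp15-/- against wildtype the count of 2 ranged between 0 and 3 when 1 array was left out and was 0 without wildtype array 2 and Bmp15-/- array 2 together, a pair chosen because both had high oocyte markers in earlier results. Between DM and Bmp15-/- it was 0 to 1 when 1 array was left out. Over all genes, leaving out 1 array gave 444 to 1653 calls in Bmp15-/- (1219 with all arrays), 2630 to 4147 in DM (3780) and 108 to 924 between the mutants (437). Without that pair of arrays the counts were 149 in Bmp15-/-, 2191 in DM and 11 between the mutants. With only the 2 groups compared in the fit they were 1894 in Bmp15-/- and 117 between the mutants. Among the members' changes, signs turned only where they were not called. Dusp1 in Bmp15-/- was -0.0578 without that pair. With 1 array left out, Dusp10 in DM ranged between -0.668 and 0.0854, Spry4 in Bmp15-/- between -0.0189 and 0.192, Spred1 in Bmp15-/- between -0.0498 and 0.0819 and Spry2 in DM against Bmp15-/- between -0.108 and 0.143. As the mean of its probe sets the last was -0.107. Spred1 in Bmp15-/- was 0.0298 as the mean of its probe sets, 0.048 after quantile normalization and 0.00028 with array medians subtracted. The cause of these shifts was not tested. Replicate numbers are shared across genotypes. Of 9 same-numbered pairs 2 had deviations correlated above 0.1 (range -0.08 to 0.258), beside 5 of 18 pairs with different numbers (range -0.204 to 0.17). The numbers were therefore not taken to pair the arrays, although the highest value, 0.258, was for wildtype array 2 with Bmp15-/- array 2. With the replicate block the counts of feedback genes were 2, 3 and 0 in Bmp15-/-, in DM and between the mutants, and over all genes 1084, 3587 and 360. Signal near background limited Dusp4, Spry1 and Spry4.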
